A study of Mus musculus with 10 samples.

Results

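The sites described here are 1036 intronic polyadenylation (IPA) sites that 4T1 cells used weakly. They are among the 1561 sites that the authors' deposited tables list as changed. Those tables compare 4T1 cells given a U1 antisense oligonucleotide (4T1-U1-ASO) with 4T1 cells. An IPA site is a place inside an intron where a transcript is cleaved and given a poly(A) tail, ahead of its last exon. Usage is the share of a site's reads among those of the site plus the gene's last exon, in percent. A site was a member when its mean usage over the 2 libraries of 4T1 was above 0 and below 5%. The members lie in 788 of the 1131 genes with a listed site. The other sites of the tables were 205 silent sites with no read in 4T1 and 320 well used sites at 5% or more in 4T1. Membership therefore rests on the 4T1 values and on the authors' call of 4T1-U1-ASO against 4T1, so all values of that contrast are given below as a description, with no test.

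The study sequenced 3′ ends of poly(A)+ RNA of mouse mammary tumour cells grown in culture, in 10 libraries of 2 per group. The groups were 4T1-U1-ASO, which is 4T1 given an antisense morpholino against U1 with the delivery reagent Endo Porter at 6 µl/mL, then 4T1 and 4T07, labelled invasive and metastatic, and 168FARN and 67NR, labelled non-invasive and non-metastatic. The series names a mock transfection as the control of the morpholino, whereas the 4T1 labels give no treatment. The labels do not tell whether both libraries of a group are separate cultures. A p-value here can therefore reflect technical spread between libraries alone. Each group is 1 cell line, and in such bulk RNA a change in some of the cells cannot be told apart from a smaller change in all of them. The peak lists held 1427728 to 3347776 reads per library, and the lowest total belonged to 67NR library 2, whose list reaches 10 chromosomes.

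U1 is the RNA core of a small nuclear ribonucleoprotein that pairs with 5′ splice sites. Apart from its part in splicing, it is known to keep the cleavage and polyadenylation machinery from using poly(A) signals inside introns, an activity called telescripting. When U1 is blocked, transcripts of long genes in particular can end early in an intron, which yields a shortened RNA and less of the full-length one.

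Of the 1036 members, 986 (95.2%) were used more and 50 were used less in 4T1-U1-ASO than in 4T1. Over all 1561 listed sites the share used more was 87.6%, which is the background of a contrast that the choice of members already used. The median usage of the members was 4.30% and 4.05% in the 2 libraries of 4T1-U1-ASO, against 0.720% and 0.854% in those of 4T1. The gap between the 2 groups is a product of the choice of members. The 4T1 values are low by the rule, and the authors had called each site as changed in this contrast. The median difference, 4T1-U1-ASO minus 4T1, was 3.30 percentage points, and the lowest value of a single member was -4.40 points.

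Most members became sites of modest use. In 4T1-U1-ASO, 593 of the 1036 stayed under 5%, 443 reached 5% or more, 203 reached 10% or more and 40 reached 20% or more. The sites of Rab10os and Myef2 averaged above 50% in 4T1-U1-ASO, but on fewer than 20 site and last-exon reads in at least 1 library. By band, members with a higher usage in 4T1 also had a higher median usage in 4T1-U1-ASO. That order follows in part from the choice of members, as a member used more must lie above its own 4T1 usage. Among members used more, the 371 below 0.5% in 4T1 had a median of 1.88% in 4T1-U1-ASO against 0.227% in 4T1. The 217 between 2 and 5% had 10.9% in 4T1-U1-ASO against 3.08% in 4T1.

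**Figure D1:**
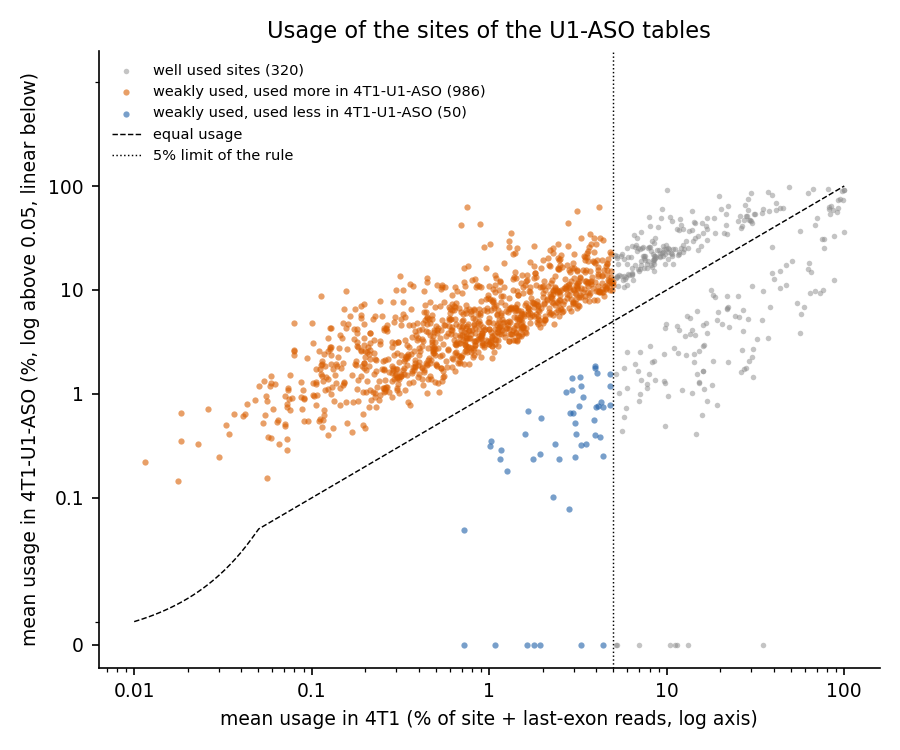
Mean usage over 2 libraries in 4T1-U1-ASO (vertical) against 4T1 (horizontal), each point 1 site, with silent sites left out because their 4T1 usage is 0. The 986 weakly used sites above the line of equal usage and the 50 below it leave an empty band along that line, since the authors' tables hold called sites alone.

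The 4T1 end of the comparison rests on few reads. At the median member the site had 28 reads over both libraries of 4T1-U1-ASO and 6 reads over both libraries of 4T1, while the last exon had 737 in 4T1-U1-ASO and 841 in 4T1. In 4T1, 161 members rested on 1 read, 319 on 2 to 5 reads and 556 on more than 5, and 289 had no read in at least 1 of the 2 libraries. Ratios for the first of these classes are therefore loose. Single members of this contrast are described below by usage, with reads for some of them, rather than by folds.

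After library scaling by the authors, site reads were higher in 4T1-U1-ASO at 925 of the 1036 members, last-exon reads were lower at 888, and both held at 789. By that scaling 1 read counted as 0.798 and 0.788 in the libraries of 4T1-U1-ASO, and as 1.39 and 1.03 in those of 4T1. The peak lists held 2596503 and 2643219 reads in 4T1-U1-ASO, and 2499475 and 2795040 in 4T1. Usage within a library is free of the scaling, but the counts and log2 ratios of this paragraph depend on it. How far they do was not tested. At the median member the site was higher by 1.53 and the last exon lower by 0.83 on the log2 scale (1 normalized read added to each sum). At 136 members the site was higher with a last exon that was not lower. At 61 members used more, the site itself was not higher, so that the rise in usage came with a fall in last-exon reads. The 50 members used less had a median log2 ratio of -2.93 at the site and -0.83 at the last exon, 4T1-U1-ASO over 4T1. For comparison, the last exon of the silent sites had a median log2 ratio of -0.01, and that of the well used sites -0.32. Split by direction, the last exon of well used sites had -0.83 where the site was used more, the same as members used more at -0.83, and 0.44 where it was used less. These medians were not tested against each other, because the classes were defined from 4T1 reads.

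**Figure D2:**
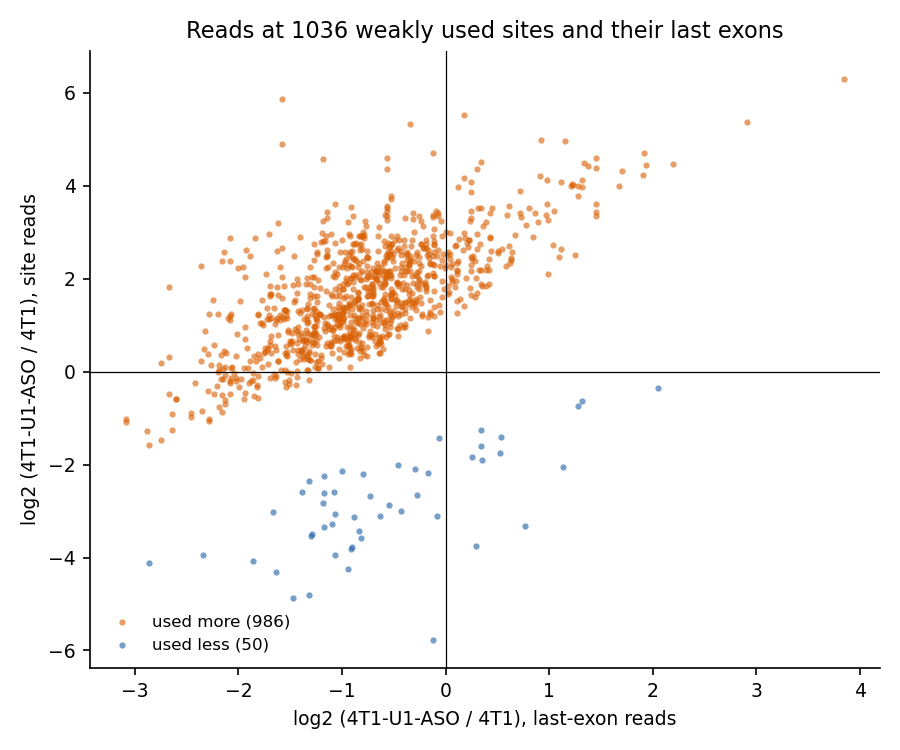
Log2 ratio of normalized reads, 4T1-U1-ASO over 4T1, at the site (vertical) against the last exon (horizontal) for each of the 1036 members, with 1 read added to each sum. The cloud of members used more centres in the upper left, with more normalized site reads and fewer normalized last-exon reads. Members used less lie below 0 on the vertical axis, and both positions depend on the authors' library scaling.

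The largest rises were ranked among the 1026 members with at least 20 site and last-exon reads in each of the 4 libraries, and 8 of the first 10 are described. Luc7l2 encodes a U1-associated factor that helps choose 5′ splice sites. Its site at chr6:38518959-38519747 (plus strand) had 43.4% and 42.6% in 4T1-U1-ASO, against 0% and 1.78% in 4T1.

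Tra2a, which encodes an SR-like splicing activator, gave a pair of sites among the largest rises. The site at chr6:49202725-49203929 (minus strand) had 265 and 297 reads and 37.3% and 33.4% usage in 4T1-U1-ASO, against 0 and 17 reads and 0% and 2.66% in 4T1. The Tra2a site at chr6:49210041-49211611 had 30.7% and 24.9% in 4T1-U1-ASO, against 1.19% and 3.71% in 4T1. These sites and those that follow were chosen for their large change, so a gap between the groups is a product of that choice.

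The remaining members described among the largest rises served varied functions. Sarnp, an mRNA export factor of the TREX complex, averaged 43.9% ± 21.7 in 4T1-U1-ASO and 2.78% ± 3.93 in 4T1 (SD, n = 2 each), on 16 and 6 site reads in 4T1-U1-ASO. Polr1b, a subunit of RNA polymerase I, averaged 29.5% ± 5.49 in 4T1-U1-ASO and 1.29% ± 0.147 in 4T1. The Polr1b site had 14 and 11 reads in 4T1-U1-ASO, against 1 and 1 in 4T1. Morf4l2, a chromatin-associated MRG protein, averaged 31.4% ± 13.3 in 4T1-U1-ASO and 3.88% ± 2.60 in 4T1. Of these, Sarnp and Morf4l2 differed widely between their own 4T1-U1-ASO libraries. In 4T1 the site had 0 and 2 reads for Sarnp and 1 and 2 for Morf4l2. Metap1d, a mitochondrial methionine aminopeptidase, averaged 31.4% ± 3.28 in 4T1-U1-ASO and 3.28% ± 1.93 in 4T1, on 2 and 1 site reads in 4T1. Nisch, which encodes the integrin-binding protein nischarin, averaged 30.5% ± 0.181 in 4T1-U1-ASO and 4.37% ± 1.60 in 4T1, with 152 and 141 reads at the site in 4T1-U1-ASO.

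The falls were smaller in points, as a site under 5% can lose no more than that. The largest was in Ppp1r8, a nuclear inhibitor of protein phosphatase 1, at chr4:132394295-132394441 (minus strand). It had no read in either library of 4T1-U1-ASO, against 10 and 14 reads and 3.46% and 5.34% in 4T1. Ltbp2, a latent TGF-beta binding protein of the extracellular matrix, held a pair of falling sites. The Ltbp2 site at chr12:86171436-86171669 had 1 and 0 reads in 4T1-U1-ASO, against 9 and 14 in 4T1, and the site at chr12:86181282-86181458 had 3 and 0 reads in 4T1-U1-ASO, against 10 and 13 in 4T1.

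Vezf1, a zinc finger transcription factor, had a lower usage with a last exon that was higher. The site at chr11:87892966-87893213 (plus strand) had 0.850% and 1.53% in 4T1-U1-ASO, against 4.83% and 4.75% in 4T1. The site had 6 and 11 reads in 4T1-U1-ASO, against 7 and 13 in 4T1, and its last exon had 700 and 708 reads in 4T1-U1-ASO, against 138 and 261 in 4T1. The other falls among the 10 largest were in 2810004N23Rik, Mrpl47 (a mitochondrial ribosomal protein), Lta4h (leukotriene A4 hydrolase), Slc7a6os, 5430416N02Rik and Agps (an enzyme of ether lipid synthesis). Their mean usage lay between 0.382% for Mrpl47 and 0.838% for Slc7a6os in 4T1-U1-ASO, against 3.90% for Agps and 4.79% for 2810004N23Rik at the ends of the range in 4T1. The last exon was higher in 5430416N02Rik and Agps too. For 5430416N02Rik it had 755 and 831 reads in 4T1-U1-ASO, against 97 and 163 in 4T1. The site of 5430416N02Rik had 8 and 4 reads in 4T1-U1-ASO, against 6 and 4 in 4T1. For Agps the last exon had 356 and 360 reads in 4T1-U1-ASO, against 84 and 270 in 4T1.

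**Figure D3:**
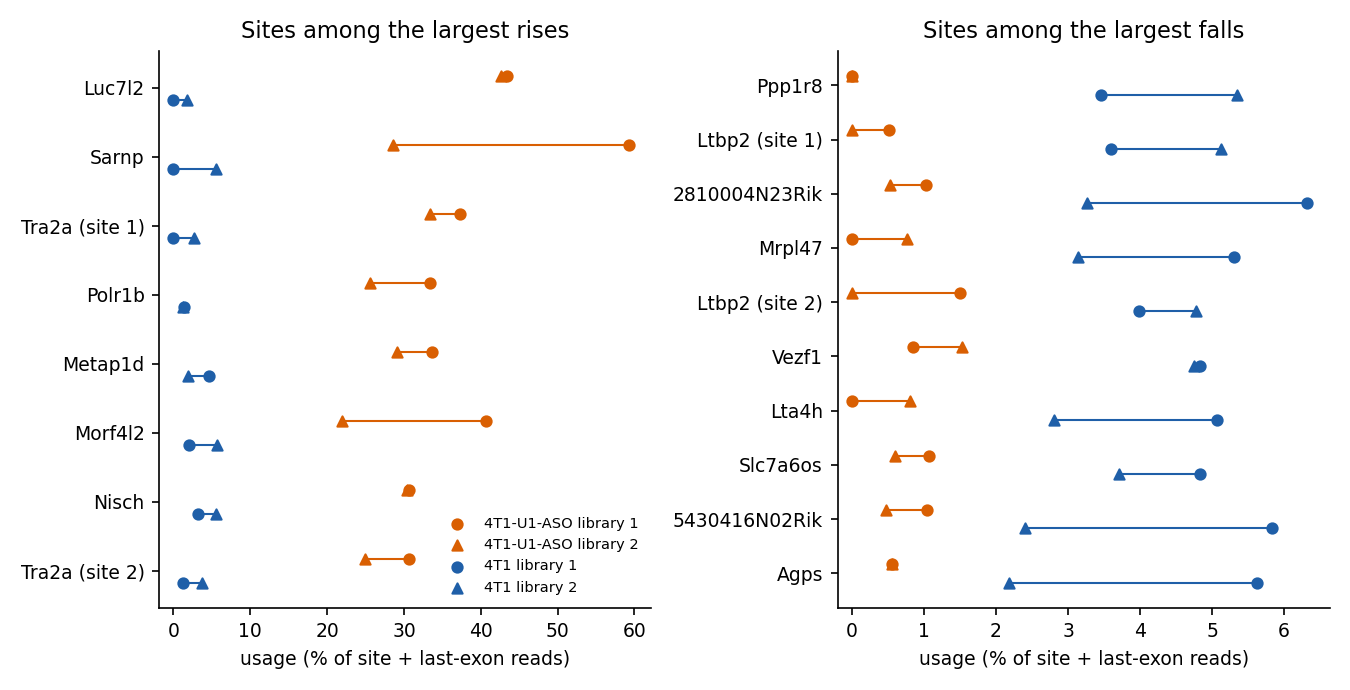
Usage in each library for 8 of the 10 members with the largest rise (left panel) and the 10 with the largest fall (right panel), 4T1-U1-ASO drawn above 4T1 in each row, with a line joining the 2 libraries of a group. The rises drawn reach 59.2% in a library for Sarnp, whereas the falls start from at most 6.32%.

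The sites nearest the limits of the rule are given once, as a description. Just inside the upper end, the site of Lamb1, a laminin chain, had 11.2% and 12.8% in 4T1-U1-ASO and averaged 4.99% ± 0.614 in 4T1, and that of Tmem183a 11.2% ± 1.07 in 4T1-U1-ASO and 4.96% ± 0.672 in 4T1 (SD, n = 2 each). Just outside it, Prodh was at 0% in both 4T1-U1-ASO libraries and averaged 5.17% ± 2.66 in 4T1. At the lower end, Clic1 rested on 9 and 8 site reads in 4T1-U1-ASO and 1 and 0 in 4T1, and Ywhaz on 5 and 7 in 4T1-U1-ASO and 1 and 1 in 4T1. Sites below that end are those without a read in 4T1.

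Of the 788 genes, 632 held 1 member, 99 held 2 and 57 held 3 or more. Sites of 1 gene share its last-exon reads, so they are not independent measurements, and their usages do not add up to a share of all transcripts. Anxa3, an annexin, and Tra2a had 7 members each, Tpm1, the tropomyosin 1 gene, had 6, and 7 genes had 5. All the members of these 10 genes were used more in 4T1-U1-ASO.

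Use within a gene was uneven. In Anxa3 the site at chr5:97254346-97254928 (plus strand) had 161 and 136 reads and 6.00% and 4.99% usage in 4T1-U1-ASO, against 4 and 11 reads and 0.182% and 0.406% in 4T1. The other 6 members of Anxa3 had between 0.269% and 2.10% in single libraries of 4T1-U1-ASO. In Tpm1, which encodes an actin-filament binding protein, the members averaged between 0.505% and 6.26% in 4T1-U1-ASO, against 0.0331% and 2.59% for the same pair of sites in 4T1. In Chka, the choline kinase alpha gene, the 5 members averaged between 5.85% and 18.1% in 4T1-U1-ASO. A well used Chka site lay among them, at 43.5% and 40.5% in 4T1-U1-ASO, against 5.10% and 19.0% in 4T1.

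The most used member was at no fixed place in the gene. Across the 54 genes with at least 3 members used more, the site with the highest usage in 4T1-U1-ASO was the most upstream in 16, the most downstream in 12 and between them in 26. With every site of a gene equally likely to be the highest, each end would hold it in 15.77 of these genes. The counts were not tested against that value. In Tra2a it was the most downstream, 11.1 kb past the first listed site, and in Anxa3 it was in between, 25.4 kb past it.

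**Figure D4:**
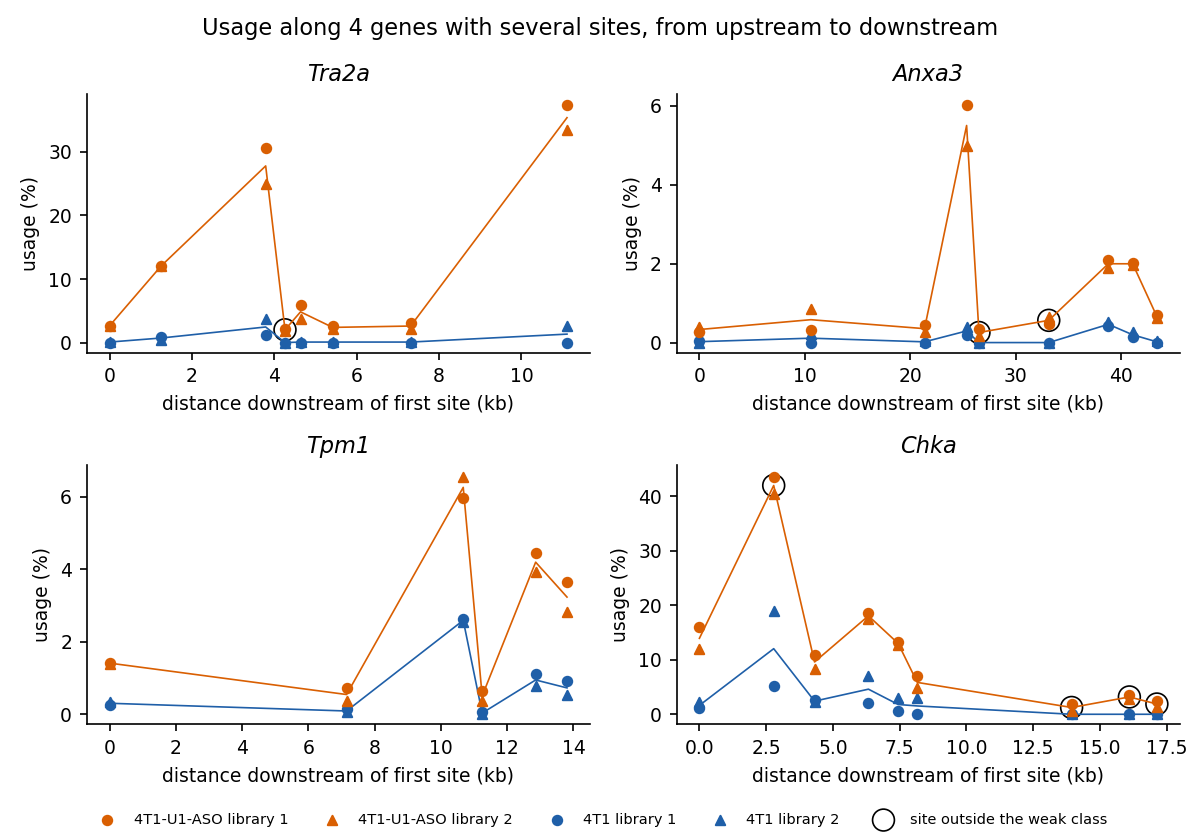
Usage in each library along Tra2a, Anxa3, Tpm1 and Chka, 4T1-U1-ASO and 4T1, against the distance downstream of the gene's first listed site in kb, with lines through the means and rings around silent or well used sites. High sites stand beside low ones in every panel, as in Tpm1, where means of 6.26% and 0.505% in 4T1-U1-ASO lie within 1 kb.

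In 11 genes a member used less lay beside a member used more. The site used less was downstream of every rising site in 6 of them (Cct4, Cct8, Epha2, Hsp90ab1, Ppp2ca and Psmd1) and upstream of every one in the other 5 (Mrps25, Nedd4, Pam, Slc7a6os and Taf15). In Hsp90ab1, a cytosolic HSP90 chaperone, the end of the site used less lay 488 bp past that of the site used more. The upstream site averaged 4.85% ± 0.931 in 4T1-U1-ASO and 2.01% ± 0.387 in 4T1, and the downstream site 0.679% ± 0.0455 in 4T1-U1-ASO and 1.66% ± 0.0372 in 4T1 (SD, n = 2 each). In Slc7a6os the downstream site averaged 18.8% ± 0.435 in 4T1-U1-ASO and 3.82% ± 1.44 in 4T1, and the upstream site 0.838% ± 0.332 in 4T1-U1-ASO and 4.27% ± 0.803 in 4T1. In Taf15, a FET-family RNA-binding protein, a site at 12.6% ± 3.45 in 4T1-U1-ASO and 1.62% ± 1.43 in 4T1 lay downstream of one at 0.663% ± 0.126 in 4T1-U1-ASO and 2.95% ± 2.49 in 4T1.

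Lists of genes by function are described next by their counts, with no test of a list, and 95.2% of all 1036 members were used more. No share over all expressed genes was at hand. Among genes with any listed site, 788 of 1131 held a member. Within lists it was 11 of 15 (SR), 16 of 17 (U1), 6 of 10 (cleavage) and 18 of 22 (hnRNP). It was 7 of 11 (DNA damage), 15 of 20 (cell cycle), 15 of 24 (chromatin) and 4 of 7 (RNA polymerase II). It was 26 of 34 (ubiquitin), 16 of 19 (translation) and 40 of 42 (adhesion). Of 31 genes for SR proteins and their relatives, 11 held 22 members, and all 22 were used more, beside 95.2% of all members, with a median difference of 4.97 points, against 3.30 over all members. Tra2a alone held 7 of the 22, and sites of 1 gene share its last-exon reads, so these are not separate observations. Besides Tra2a, the Srrm2 site had 27.6% and 21.3% in 4T1-U1-ASO, against 1.72% and 2.67% in 4T1. The Srsf3 site had 12.4% and 11.7% in 4T1-U1-ASO, against 0.349% and 0.541% in 4T1. Srrm2 is a scaffold of nuclear speckles, and Srsf3 is an SR splicing factor that also acts in RNA export.

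Of 41 genes for the U1 particle and early splice-site recognition, 16 held 22 members, all used more, beside 95.2% of all members. Their median difference was 3.73 points. They included Snrpc, which encodes a protein of the U1 particle itself, with 10.7% and 10.2% in 4T1-U1-ASO, against 3.47% and 1.83% in 4T1. Tia1, a promoter of U1 recruitment to weak 5′ splice sites, had 7.16% and 8.64% in 4T1-U1-ASO, against 0% and 0.485% in 4T1. Rbm25, a U1-associated splicing regulator, had 13.0% and 11.7% in 4T1-U1-ASO, against 0% and 1.60% in 4T1.

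Of 29 genes for cleavage and polyadenylation, 6 held 10 members, all used more, beside 95.2% of all members. Their median difference was 4.05 points. In Cpsf6, a subunit of cleavage factor I, 3 members were used more, and that at chr10:116791856-116792052 (minus strand) had 64 and 52 reads in 4T1-U1-ASO, against 0 and 1 in 4T1. The Cstf3 site, in a subunit of the cleavage stimulation factor, averaged 10.7% ± 6.64 in 4T1-U1-ASO and 0.541% ± 0.765 in 4T1. For hnRNP and other RNA-binding proteins, 18 of 48 genes held 29 members, of which 27 were used more and 2 less. Fubp1, a single-strand DNA and RNA binding protein, had 16.3% and 17.3% at its highest site in 4T1-U1-ASO, against 0% and 1.51% in 4T1.

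In a further 4 lists, as in 95.2% of all members, each member was used more. DNA damage signalling and repair had 10 members in 7 of 88 genes, the cell cycle 16 in 15 of 116, chromatin 21 in 15 of 134, and RNA polymerase II initiation and elongation 4 in 4 of 56. Rev1, a translesion DNA polymerase, averaged 12.7% ± 1.95 in 4T1-U1-ASO and 0.830% ± 1.17 in 4T1. Ezh2, the H3K27 methyltransferase of Polycomb, averaged 13.7% ± 3.35 in 4T1-U1-ASO and 4.08% ± 1.42 in 4T1. Cenpf, a kinetochore protein, averaged 19.9% ± 4.89 in 4T1-U1-ASO and 2.51% ± 3.55 in 4T1, on 1 and 0 site reads in 4T1.

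The other 3 lists held members of both directions. Ubiquitin enzymes had 37 members in 26 of 181 genes, 35 used more and 2 less. The ubiquitin-conjugating enzyme gene Ube2b averaged 20.4% ± 0.783 in 4T1-U1-ASO and 2.15% ± 0.808 in 4T1 at its highest site. Translation factors and ribosomal proteins had 23 members in 16 of 136 genes, 21 used more and 2 less, led by the elongation factor Eef1g with 16.7% in both libraries of 4T1-U1-ASO, against 1.45% and 3.66% in 4T1. Adhesion, actin and cytoskeleton genes had 79 members in 40 of 116 genes, 76 used more and 3 less. Their median difference was 1.27 points, below the 3.30 over all members, and their largest was in the actomyosin kinase gene Rock2, at 13.6% and 16.2% in 4T1-U1-ASO, against 0% and 2.78% in 4T1. Well used Rock2 sites outside the members went the other way. That starting at chr12:16929810 averaged 3.84% ± 0.0562 in 4T1-U1-ASO and 56.6% ± 21.7 in 4T1. That starting at chr12:16946847 averaged 0.631% ± 0.058 in 4T1-U1-ASO and 15.9% ± 11.3 in 4T1.

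The 3 lines that the rule did not use were examined at the same positions through their peak lists. Both libraries of 67NR were read on 9 chromosomes, and those of 4T07 and 168FARN on all 19 autosomes. These lists are filtered, and an unlisted peak is not a peak without reads. Of members with at least 100 recovered reads in a library, 25.0% of 36 and 30.3% of 33 in 4T1-U1-ASO, and 44.4% of 9 and 50.0% of 10 in 4T1, had no listed peak in that library's own list. Of members with at least 1 read in 4T1, 61.2% and 61.0% had none in the 2 libraries of 4T1. Shares with a listed peak therefore compare classes of sites within a library and do not count the sites in use.

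Weakly used sites stood between the other classes in every library of the other lines. A peak was listed at 36.1% and 36.4% of the members in 4T07, 32.7% and 34.8% in 168FARN, and 34.0% and 43.6% in 67NR. At the silent sites the shares were 20.2% and 22.2% in 4T07, 12.6% and 14.6% in 168FARN, and 25.0% and 35.9% in 67NR. At the well used sites they were 61.6% and 64.2% in 4T07, 64.5% and 64.5% in 168FARN, and 67.2% and 70.8% in 67NR.

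Members were listed more often than silent sites in 6 of 6 libraries, by 14.5 ± 5.32 points (mean ± SD, n = 6; two-sided exact sign-flip permutation test over libraries, p = 0.03125). They were listed less often than well used sites in 6 of 6 libraries, with a mean difference of -29.2 ± 2.90 points, members minus well used (p = 0.03125 in the same exact permutation test). That p is the smallest that 6 libraries allow, and adjustment over the 2 comparisons leaves it at 0.03125. Libraries of 1 line are not independent lines. The median last-exon reads in 4T1 also differed between the classes, at 841 for members, 327 for silent sites and 261.5 for well used sites, and the part of host-gene level in these shares was not tested.

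**Figure D5:**
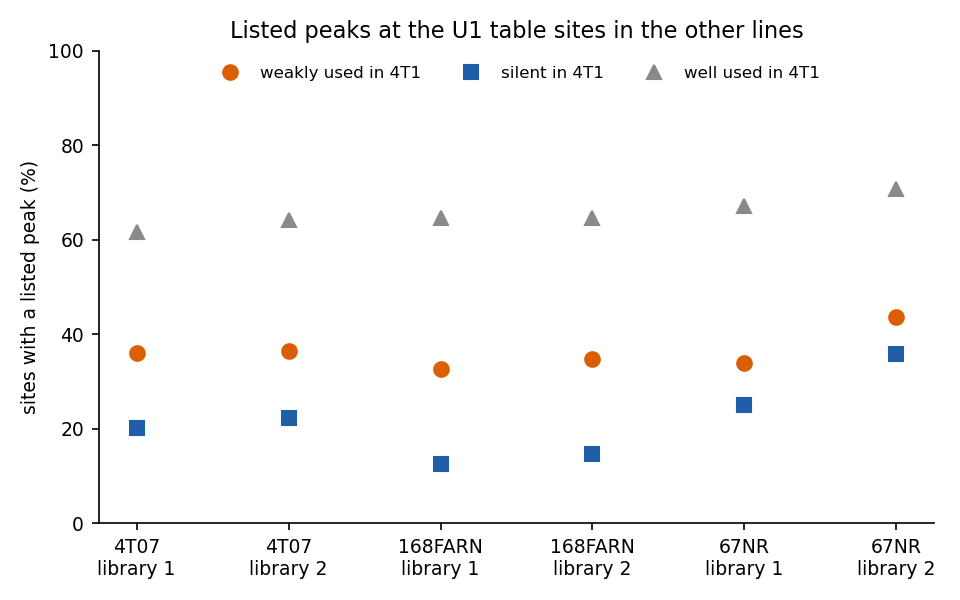
Percentage of sites with a listed peak in each library of 4T07, 168FARN and 67NR, for sites weakly used, silent and well used in 4T1, with no error bar because each point is 1 library. The weakly used sites lie between the other classes in all 6 libraries, between 32.7% (168FARN library 1) and 43.6% (67NR library 2).

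Peak reads at member sites were then compared between lines with edgeR's quasi-likelihood test across all merged peak regions. This tests reads at the place, which also follow the level of the gene, and not usage. In 4T07 against 168FARN, 134 members could be tested, and 15 were higher and 11 lower in 4T07 at a Benjamini-Hochberg adjusted p under 0.05. Over all 15564 regions 17.2% were higher and 16.2% lower beside the members' shares of 11.2% and 8.21%. The members' shares were below this background with the filter on low counts, and above it without. Over all merged regions the median width was 48 bp, against 308.5 bp for regions at members. Peaks of 1 read made up 47.2% to 51.5% of those listed per library of 4T07 and 168FARN. The shares without the filter therefore compare regions of unlike size, and the part of read depth in them was not tested. With no low-count filter, 56 of 628 members (8.92%) were called in either direction, beside 4.22% of 157138 regions, and DESeq2 on the same set called 21 members (3.34%), beside 2.53%. In 14 of the 26 called members, 1 line had no listed peak in either library. When regions with a listed peak in all 4 libraries were fitted alone, a choice made after seeing the data, 9 members were higher and 11 lower of 69, beside 21.4% and 22.9% of 12696 regions.

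Of the calls that had a listed peak in all 4 libraries, the Tpm1 site at chr9:66875700-66875985 (minus strand) had the most reads among those over 2 log2 units. It had 29 and 26 peak reads in 4T07, against 146 and 144 in 168FARN, a log2 change of -2.34 (edgeR adjusted p = 0.00894). Vezf1 had 11 and 10 reads in 4T07, against 52 and 44 in 168FARN (log2 change -2.13, edgeR adjusted p = 0.0182). The Ltbp2 site at chr12:86171436-86171669 had 2 and 3 reads in 4T07, against 13 and 12 in 168FARN. Its edgeR call (adjusted p = 0.0298) was lost with DESeq2 (adjusted p = 0.426) and with no low-count filter (edgeR adjusted p = 0.516). The reads of Vezf1 came from a merged region of 522 bp around a site of 248 bp.

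Also called lower by edgeR were Slc3a2, the heavy chain of amino acid transporters, Crk, an adaptor protein whose site of 287 bp lies in a merged region of 742 bp, and the chaperonin subunit Tcp1. Slc3a2 had 1 and 2 reads in 4T07, against 22 and 19 in 168FARN (log2 change -3.64, edgeR adjusted p = 0.0158), Crk had 4 and 4 in 4T07, against 13 and 24 in 168FARN, and Tcp1 had 39 and 52 in 4T07, against 96 and 116 in 168FARN. DESeq2 did not call Slc3a2 (adjusted p = 0.0754) or Crk (0.362). With no low-count filter the Crk call was lost as well (edgeR adjusted p = 0.317). Both Tra2a sites named above were called higher in 4T07 by edgeR. The one at chr6:49202725-49203929 had 22 and 18 reads in 4T07, against 3 and 1 in 168FARN (log2 change 3.29, edgeR adjusted p = 0.0325). The other had 32 and 30 in 4T07, against 8 and 9 in 168FARN (log2 change 1.91, edgeR adjusted p = 0.0214). Neither was called by DESeq2 (adjusted p = 0.106 and 0.167). The call at chr6:49210041-49211611 was also lost with no low-count filter (edgeR adjusted p = 0.0904).

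The RNA helicase gene Ddx17 and the tetraspanin-like gene Tm4sf1 were called higher as well. Ddx17 had 27 and 48 reads in 4T07, against 8 and 9 in 168FARN, and Tm4sf1 had 69 and 93 in 4T07, against 24 and 20 in 168FARN (log2 change 2.15 and 1.91, edgeR adjusted p = 0.0243 and 0.0158), but DESeq2 did not call Ddx17 (adjusted p = 0.0793). In all, DESeq2 did not call 6 of the 12 edgeR calls listed in all 4 libraries. Calls at Nolc1 (log2 change -1.51) and Aldoa (0.66) came from merged regions of 2454 and 1158 bp, wider than the sites of 355 and 338 bp, so their reads need not be those of the site. No fold is given for members unlisted in 1 line. The largest of these were Wfdc2, Atp5b, Nfix, Sep15, Vim and Dnajc10, listed in 4T07 and not in 168FARN, with 193 and 282 reads for Wfdc2 in 4T07. Hsp90ab1, Mrpl13, Usp14 and Pdia6 were listed in 168FARN and not in 4T07, with 149 and 221 reads for Hsp90ab1 in 168FARN.

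In 4T07 against 67NR, on 9 chromosomes, 61 members could be tested, and 6 were higher and 5 lower in 4T07, beside 14.8% and 14.4% of 7245 regions. With no low-count filter 34 of 307 members (11.1%) were called in either direction, beside 2.9% of 89893 regions, and DESeq2 called 12 (3.91%), beside 2.12%. The limit of unlike regions holds for these shares too. In 8 of the 11 members called with the filter, 1 line had no listed peak. With a listed peak in all 4 libraries 2 were higher and 1 lower of 32, beside 19.0% and 18.1% of 5762 regions. The fibronectin gene Fn1 had 95 and 94 reads in 4T07, against 38 and 44 in 67NR (log2 change 1.49, edgeR adjusted p = 0.0196), in a merged region of 392 bp around a site of 203 bp. P4hb, a protein disulfide isomerase, had 94 and 107 in 4T07, against 65 and 48 in 67NR (log2 change 1.11, edgeR adjusted p = 0.0404). Atp5b, the beta subunit of the mitochondrial ATP synthase, had 121 and 147 in 4T07, against 261 and 247 in 67NR (log2 change -0.64, edgeR adjusted p = 0.0373, DESeq2 adjusted p = 0.0645), though its site is 578 bp and the merged region 914 bp. The Atp5b call was also lost with no low-count filter (edgeR adjusted p = 0.699). The calls with an unlisted line were at a pair of Ddx17 sites, Pabpc1 and App, listed in 4T07, and at Tmpo, Sqstm1, Zfp207 and Pa2g4, listed in 67NR. As 4T07 enters both comparisons, they share those libraries.

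These counts depended on each library. Leaving out either library of 4T07 took the members called by edgeR to 0 in both comparisons (43 and 46 members at an unadjusted p under 0.05 against 168FARN, 19 and 21 against 67NR). Over all regions 0.836% and 1.1% were then called against 168FARN, and 0.0% against 67NR. In turn, leaving out a library of the other line took the edgeR calls against 168FARN to 13 or 12 of 187 members tested, beside 11.3% and 15.2% of all regions. Against 67NR it took them to 4 of 103 or 3 of 85, beside 14.3% and 14.1%.

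Where the authors' deposited tables of the lines list a site that overlaps a member on the same strand, usage itself can be compared. The deposited table of 4T07 against 168FARN overlapped 42 of the 1561 sites (2.69%), 16 of them members, and that of 4T07 against 67NR overlapped 18 (1.15%), 5 of them members. Against 168FARN, mean usage was higher in 4T07 at 7 members and lower at 8, and Tsnax had no last-exon read in 168FARN. Against 67NR it was higher at 1 and lower at 4. Listing depends on the authors' adjusted p, and the intervals of these tables are often wider than the members, so the values below belong to the wider site.

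The pair of overlapping Tpm1 sites was used less in 4T07. The site around chr9:66875700-66875985 had 1.66% and 1.21% in 4T07, against 7.96% and 6.84% in 168FARN, with last-exon signals of 1959.37 and 1960.02 normalized reads in 4T07, against 1717.67 and 1823.34 in 168FARN. That around chr9:66876646-66877220 had 1.06% and 1.03% in 4T07, against 4.07% and 3.94% in 168FARN, and 2.64% and 3.30% in 67NR in the other table. At both sites usage in 4T1-U1-ASO, 3.23% ± 0.580 and 4.20% ± 0.369, was above the 4T07 values. The tables were normalized separately, which cancels in usage.

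The Vezf1 site had 3.35% and 2.82% in 4T07, against 16.6% and 9.57% in 168FARN (adjusted p = 0.001 in the authors' deposited table). Fam120a, an RNA-binding scaffold protein, had 0% and 0.325% in 4T07, against 3.59% and 2.36% in 168FARN, and 0.937% and 1.76% in 67NR in the other table. The Tra2a sites were used more in 4T07. That at chr6:49202725-49203929 had 5.08% and 3.33% in 4T07, against 0.925% and 0.917% in 168FARN, and the other had 8.87% and 7.43% in 4T07, against 2.73% and 2.92% in 168FARN (adjusted p = 0.013 and 0.012 in the authors' deposited table). These levels are well below the 35.4% ± 2.74 and 27.8% ± 4.09 of 4T1-U1-ASO.

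Ddx17 was likewise higher, at 2.80% and 3.91% in 4T07, against 1.29% and 1.21% in 168FARN (adjusted p = 0.025 in the authors' deposited table). Sfpq, a paraspeckle RNA-binding protein with a pair of members inside 1 wider listed site, had 0.719% and 0.540% in 4T07, against 0.114% and 0.199% in 168FARN. The site of 1190002F15Rik had 2.53% and 2.45% in 4T07, against 0.473% and 0.985% in 168FARN. Padi4, a peptidylarginine deiminase, had 0.894% and 1.60% in 4T07, against 4.34% and 5.96% in 168FARN. Its site signal went the other way, at 12.14 and 20.38 normalized reads in 4T07, against 4.04 and 4.62 in 168FARN. The last exon of Padi4 had 1345.97 and 1255.12 normalized reads in 4T07, against 88.97 and 72.93 in 168FARN.

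For Wfdc2, a secreted protease-inhibitor family protein, reads and usage went apart too. Site signal was 212.93 and 262.14 normalized reads in 4T07, against 1.01 and 1.85 in 168FARN, yet usage was 2.67% and 3.67% in 4T07, against a mean of 22.5% ± 3.56 in 168FARN (SD, n = 2), where the last exon had 4.04 and 5.54 normalized reads in 168FARN (adjusted p = 0.076 in the authors' deposited table). Against 67NR, the membrane protein gene Tmem79 had 3.68% and 4.52% in 4T07, against 43.5% and 41.7% in 67NR, on 9.48 and 4.57 normalized site reads in 67NR. Tut1, a terminal uridylyltransferase, had 1.31% and 4.00% in 4T07, against 15.6% and 14.3% in 67NR (adjusted p = 0.091 in the authors' deposited table). The lamin A gene Lmna was the member used more, at 1.05% and 1.66% in 4T07, against 0.571% and 0.785% in 67NR (adjusted p = 0.091 in the authors' deposited table). In the deposited tables of 4T1 against 168FARN and 67NR, 6 and 13 members were overlapped, and these are not described because low usage in 4T1 defined the members.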

How the data were processed

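Sites and their values came from the authors' deposited tables of 4T1-U1-ASO against 4T1, which hold sites with an adjusted p-value of at most 0.1. Per the file headers they give a log2 fold change with its p-value, and a normalized read signal of the site and the last exon per library. The deposited signals were whole multiples of 1 read in each library (100% of values within 0.1 read), so reads were recovered for description. The peak lists were deposited by the authors as a whole-number read count per peak, per library. Mouse build mm9, whose positions are used 1-based, and DESeq2 1.4.5, bedtools 2.17.0, Bowtie2 2.2.5 and SAMtools 1.1 are listed in the submitters' processing notes. The criteria of the list filter are not given in the sources used here.

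Members, gene lists and tests were chosen with earlier results of these data known. Peaks of all libraries were merged per strand with bedtools 2.31.1, and reads per region were fitted in R 4.3.3 by the quasi-likelihood test of edgeR 4.0.16 (TMM scaling, filterByExpr, Benjamini-Hochberg adjusted p under 0.05), on chromosomes 1 to 19, or the 9 that the list of 67NR library 2 covers in full. A region with no listed peak entered as 0 reads. In data simulated for 4T07 against 168FARN (15564 regions), 70% of 100 regions changed 4-fold and 100% of 100 changed 16-fold were recovered, with 7 false calls. For 4T07 against 67NR (7245 regions) these were 77%, 100% and 11. The simulated counts had a fixed dispersion of 0.1 and no gaps in the lists. Changed regions were drawn only from those with higher mean reads. These figures therefore do not describe calls at members with few reads or with an unlisted line. Shares with a listed peak (at least 1 bp overlap) were compared by an exact sign-flip permutation test over libraries. DESeq2 1.42.0 and the other alternatives stand in the closing section.

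Named sites were the 10 largest rises and falls among members with at least 20 reads in each of 4 libraries, sites at the ends of the rule, genes with the most members, list members, up to 6 called members each way by log2 change and up to 10 members by deposited log2 change in the 4T07 tables. Ties at 5 sites were taken in alphabetical order. The genes with members of both directions, the called members listed in all 4 libraries, and Ddx17 and the further Tra2a site in the 4T07 tables were named after their values were seen. No per-sample column was left unmapped. Some sites that the rule names are not reported here. No genome of build mm9 was used, so the intronic position of a site is the authors' annotation and no sequences are shown. Of 788 gene names, 761 matched a RefSeq symbol and 26 a unique synonym of GRCm38.p6.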

Additional observations from a re-analysis of the deposited data

How the results depend on the processing

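The number of members was 896 with an upper limit of 0.03 and 1161 with 0.10, and between 808 and 952 when 1 library of 4T1 defined the rule. The median difference in usage was 3.08 to 3.40 points with 1 library left out, and 3.25 to 3.33 points under the other settings tried. Against silent sites the difference in listed share was 17.6 points over the 4 libraries without 67NR, and against well used sites it was -28.7 points. With 1 library left out these were 13.4 to 15.8 and -30.0 to -28.4 points. The exact permutation test cannot pass 0.05 there, as its smallest p is 0.125 for 4 libraries and 0.0625 for 5. With the 9 shared chromosomes, peaks of at least 5 reads, or peaks that cover at least 50% of a site, both differences kept their direction, at p = 0.03125 in the exact permutation test. The restriction to members with more than 5 site reads in 4T1, the 9 shared chromosomes and the fit of regions listed in all 4 libraries were chosen after seeing the data.

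Members called by edgeR in 4T07 against 168FARN numbered 26 of 134 tested, and 56 of 628 with no low-count filter, 0 to 13 with 1 library left out and 20 with a listed peak in all 4 libraries. In 4T07 against 67NR they numbered 11 of 61, and 34 of 307, 0 to 4 and 3 under the same settings. The members' share called was below that of all regions with the filter, and above it without, at 8.92% and 11.1%, beside 4.22% and 2.9%. Regions at members had a median width of 308.5 bp, against 48 bp over all merged regions. The shares without the filter therefore compare unlike regions. Where a line was left with 1 library, that library was assumed to vary like the other line. A replicate block left 0 members called in either comparison (24 and 10 at an unadjusted p under 0.05) and 0 calls over all regions. Same-numbered libraries did not deviate together over the tested regions (correlation 0.02 and -0.03). That gives no sign of a pairing by number, but it cannot show whether same-numbered libraries were prepared together. The called members named for the lines were chosen by this same test. Those with no listed peak in either library of 1 line could not turn their direction. None of the called members named turned its direction under any setting that could be fitted, which is therefore no separate support. Their calls held in 125 refits and were lost in 152, the block and the fits with 1 library left out included. Low read numbers at the sites in 4T1 and the filter of the peak lists limit the precision of all values.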
